A study of Homo sapiens with 4 samples.

Results

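Stem and progenitor genes were examined in the KMT2A-MLLT3 rearranged line MOLM-13, established from a human acute myeloid leukaemia, after CRISPR-Cas9 targeting of the histone acetyltransferase gene KAT6A. The group was a fixed list of 10 symbols (CD34, PROM1, SPINK2, ERG, MECOM, GATA2, HLF, SOX4, MSI2 and ETV6), and 10 of 10 were found by exact symbol among the 27800 symbols of the expression table. The 4 libraries were 2 of cells transduced with lentivirus carrying CRISPR-Cas9 and sgKAT6A and 2 of cells given the same system with a vector labelled EV. Both groups thus received a lentiviral vector, but whether EV also carried Cas9 cannot be told from its label. The content of EV, the guide sequence, the time of harvest, whether the cells were clones or a pool, and whether replicates were separate cultures are details not given in the sources used. A p-value here reflects library-to-library spread alone, which may be technical. Levels are in TPM, a share of transcripts that is adjusted for transcript length and sums to 1000000 in each library, and paired values are given for replicate 1 and then replicate 2. Depth is unknown from TPM, and with it the precision of low values.

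Haematopoietic stem and progenitor cells are marked by surface proteins such as CD34 and CD133, and their identity rests on transcription factors of several families, among them ERG, GATA2, MECOM and HLF. Many of these genes are silenced as cells mature along the myeloid lineage, and part of the program is retained or reactivated in leukaemia stem cells. SOX4, MSI2 and ETV6 also act in progenitors but are expressed more widely.

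Of the 10 genes, 3 were listed at 0 TPM in every library, 2 were above 0 but averaged under 1 TPM, and 5 averaged at least 1 TPM and were tested. None of the 5 passed an adjusted p of 0.05 between sgKAT6A and EV, as for 0% of all 12603 genes tested. SPINK2 and ETV6 had both sgKAT6A libraries above both EV libraries (14.4% of all genes tested), none had both below (23.2%), and the other 3 overlapped between the groups.

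Promoter windows from RefSeq on GRCh38.p14, each running from 250 bases before to 50 bases after a transcription start, were matched by symbol for 10 of 10 genes, 22 windows in all. Those of SPINK2 and ETV6 are shown because these genes did not overlap between the groups. The CD34 window and 1 ERG window are shown as examples from genes listed at 0. PROM1, also listed at 0, has 4 windows, which are not shown. They lie at chr4:56821820-56822119 and chr4:56821652-56821951 (minus strand) for the starts of SPINK2, chr12:11649424-11649723 (plus strand) for ETV6, chr1:207911076-207911375 (minus strand) for CD34 and chr21:38660618-38660917 (minus strand) for ERG. Sequences are written 5′ to 3′ on the strand of the gene, and capitals mark CpG dinucleotides, the sites of DNA methylation.
SPINK2 upstream start: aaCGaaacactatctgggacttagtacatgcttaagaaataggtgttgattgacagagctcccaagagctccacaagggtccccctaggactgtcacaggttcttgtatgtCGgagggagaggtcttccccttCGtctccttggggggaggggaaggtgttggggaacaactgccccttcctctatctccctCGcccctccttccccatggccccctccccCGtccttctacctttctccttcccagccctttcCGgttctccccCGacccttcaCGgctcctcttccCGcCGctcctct
SPINK2 downstream start: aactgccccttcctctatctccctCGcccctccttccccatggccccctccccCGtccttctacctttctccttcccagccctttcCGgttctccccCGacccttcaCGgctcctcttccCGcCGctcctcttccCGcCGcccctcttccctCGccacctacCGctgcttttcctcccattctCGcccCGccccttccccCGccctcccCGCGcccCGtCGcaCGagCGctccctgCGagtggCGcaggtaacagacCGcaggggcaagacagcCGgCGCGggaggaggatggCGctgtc
ETV6: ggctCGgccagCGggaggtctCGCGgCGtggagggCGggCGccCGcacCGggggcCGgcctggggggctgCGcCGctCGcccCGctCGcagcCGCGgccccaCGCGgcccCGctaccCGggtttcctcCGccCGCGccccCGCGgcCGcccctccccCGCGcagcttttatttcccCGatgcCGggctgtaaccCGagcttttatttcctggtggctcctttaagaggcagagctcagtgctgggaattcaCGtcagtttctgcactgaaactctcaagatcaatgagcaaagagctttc
CD34: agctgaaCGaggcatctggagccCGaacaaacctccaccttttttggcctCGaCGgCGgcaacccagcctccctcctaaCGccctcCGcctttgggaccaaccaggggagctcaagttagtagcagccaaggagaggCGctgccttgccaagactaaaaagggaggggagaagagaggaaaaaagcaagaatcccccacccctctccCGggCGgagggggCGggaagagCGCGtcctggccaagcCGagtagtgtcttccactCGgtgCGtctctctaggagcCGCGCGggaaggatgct
ERG most upstream start: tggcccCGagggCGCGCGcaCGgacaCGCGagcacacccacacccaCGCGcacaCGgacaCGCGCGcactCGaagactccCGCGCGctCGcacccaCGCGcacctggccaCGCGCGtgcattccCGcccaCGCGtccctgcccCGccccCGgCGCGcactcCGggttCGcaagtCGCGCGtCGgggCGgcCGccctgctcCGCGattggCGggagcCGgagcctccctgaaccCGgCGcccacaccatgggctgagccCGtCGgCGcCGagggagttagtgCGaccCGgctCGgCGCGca

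The windows differed widely in CpG content, against a median of 14 CpG sites over 35116 windows of all genes. The ETV6 window held 33 CpG sites, and the CD34 window held 19. The most upstream ERG start had 53 CpG sites, at the 99.5th percentile of all windows, although ERG was listed at 0 in all 4 libraries. The other 3 ERG windows each had 4. The SPINK2 windows, which overlap, held 10 and 27 CpG sites. The PROM1 windows held 18, 32, 24 and 6. The only window of SOX4, the gene with the highest mean level, held 8, whereas those of HLF, near 0 TPM, held 31 and 15. Those of MSI2 held 15 and 34, those of GATA2 29 and 22, and those of MECOM 19, 12 and 19. High CpG content was thus found both at a gene that was expressed and at a gene listed at 0. The table gives a single value per gene, so use of alternative starts could not be read from it.

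Motifs of the ETS, GATA and RUNX families of blood transcription factors, a single form for each, were searched on both strands. Other forms of these motifs were not searched, so a window without a match may still hold a site of that family. The ETS motif CCGGAA was found in 3 of 22 windows, against 17.2% of all windows. It occurred in both SPINK2 windows at the same site, chromosome 4 positions 56821863 to 56821868, on the strand opposite to the gene, and in the window of the third PROM1 start. The GATA motif AGATAA was found in 3 windows (10.3% of all windows), of which a pair of overlapping ERG windows share the same site and the other belongs to MECOM. The RUNX motif TGTGGT was found in 1 window, of MECOM, against 13.1% of all windows.

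The transcripts of both surface markers in the list were at 0. CD34, which encodes the sialomucin used to isolate progenitors (chromosome 1, 207880972 to 207911402, minus strand), was at 0 TPM in both sgKAT6A and both EV libraries. PROM1, which encodes the pentaspan membrane protein CD133 (chromosome 4, 15963076 to 16084378, minus strand), was likewise at 0 TPM in all 4. Gene coordinates here and below are from GENCODE 29 on GRCh38, since the table has none. An exact 0 in a table without counts does not exclude a few transcripts. Of 19066 protein-coding symbols, 2693 (14.1%) were at 0 in every library, whereas 12 housekeeping genes were at 14.9 TPM or more in each.

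Of ERG, HLF, MECOM and GATA2, the stem cell transcription factors named above, all but GATA2 were at or near 0. ERG, an ETS factor required for maintenance of haematopoietic stem cells (chromosome 21, 38380027 to 38661780, minus strand), was at 0 TPM in all 4 libraries. HLF, a PAR bZIP factor restricted within blood to immature cells (chromosome 17, 55265012 to 55325065, plus strand), was at 0.0195 and 0.0118 TPM in sgKAT6A cells, against 0.0268 and 0.0187 TPM in EV cells. MECOM, which encodes the zinc finger factor EVI1 (chromosome 3, 169083499 to 169663618, minus strand), was at 0.0106 and 0.129 TPM in sgKAT6A cells, against 0.0487 and 0.0608 TPM in EV cells. In bulk RNA, fewer cells with a transcript and less of it per cell cannot be told apart. Both genes overlapped between the groups, and neither was tested. Within each library HLF ranked between the 22.9th and 25.5th percentile of protein-coding genes and MECOM between the 21.6th and 31.3rd.

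GATA2, a zinc finger factor of stem cells and early progenitors (chromosome 3, 128479427 to 128493185, minus strand), was at 3.57 and 5.10 TPM in sgKAT6A cells, against 4.69 and 4.56 TPM in EV cells. The sgKAT6A libraries enclosed the EV libraries on both sides. The log2 difference was -0.09 ± 0.21 (SE; 95% interval -0.67 to 0.48, adjusted p = 0.906 by limma). Without sgKAT6A replicate 1 the GATA2 difference was 0.12. GATA2-AS1, the antisense gene that overlaps GATA2 in the annotation, was at 4.60 and 5.92 TPM in sgKAT6A cells and 3.81 and 4.78 TPM in EV cells. The sources used here do not say whether reads were counted by strand, so reads of this pair may be exchanged.

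SOX4, an HMG-box transcription factor linked to myeloid leukaemia in mice, had the highest mean level of the 10 over all libraries. The gene (chromosome 6, 21592768 to 21598619, plus strand) was at 17.3 and 18.9 TPM in sgKAT6A cells, against 18.9 and 20.6 TPM in EV cells. The upper sgKAT6A value lay just above the lower EV value, so the groups met without separating. Its log2 difference was -0.12 ± 0.13 (SE; 95% interval -0.47 to 0.24, adjusted p = 0.815 by limma), the same size as the gap between replicates 2 and 1, which was 0.12 in sgKAT6A and 0.11 in EV. Omitting single libraries gave SOX4 differences of -0.06 (either EV replicate 2 or sgKAT6A replicate 1 omitted), -0.17 (EV replicate 1 omitted) and -0.18 (sgKAT6A replicate 2 omitted). With quantile normalization both sgKAT6A libraries were below both EV libraries, with a difference of -0.10.

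ETV6, an ETS-family repressor needed for stem cell survival in adult bone marrow of mice (chromosome 12, 11649854 to 11895402, plus strand), was at 19.4 and 19.9 TPM in sgKAT6A cells, against 15.5 and 18.7 TPM in EV cells. Both sgKAT6A libraries were above both EV libraries. The means were 19.6 ± 0.341 TPM in sgKAT6A cells and 17.1 ± 2.29 TPM in EV cells (SD, n = 2 each), giving a ratio of 1.15. On the log2 scale ETV6 differed by 0.19 ± 0.15 (SE; 95% interval -0.21 to 0.60, adjusted p = 0.784 by limma). This was smaller than the gap of 0.26 between the EV libraries, and it was 0.07 without EV replicate 1 and 0.32 without EV replicate 2.

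MSI2, an RNA-binding protein that promotes stem cell self-renewal (chromosome 17, 57255851 to 57684685, plus strand), was at 6.78 and 6.44 TPM in sgKAT6A cells, against 7.64 and 6.14 TPM in EV cells. The EV libraries enclosed the sgKAT6A libraries. The log2 difference was -0.05 ± 0.16 (SE; 95% interval -0.50 to 0.40, adjusted p = 0.936 by limma). Its sign was positive without EV replicate 1 (0.09) and with protein-coding genes only (0.01).

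SPINK2, a Kazal-type serine protease inhibitor transcribed in haematopoietic progenitors (chromosome 4, 56809860 to 56821742, minus strand), had the largest difference of the 5. It was at 2.59 and 1.91 TPM in sgKAT6A cells, against 1.21 and 0.399 TPM in EV cells. Both sgKAT6A libraries were above both EV libraries, and EV replicate 2 was the lowest. The means were 2.25 ± 0.485 TPM in sgKAT6A cells and 0.806 ± 0.575 TPM in EV cells (SD, n = 2 each), a ratio of 2.79. On the log2(TPM + 1) scale the difference was 0.88 ± 0.34 (SE; 95% interval -0.08 to 1.83), with an unadjusted p of 0.0637 and an adjusted p of 0.784 by limma. It was 0.70 between the replicate 1 libraries and 1.05 between the replicate 2 libraries, and the EV libraries themselves differed by 0.66. With a pseudocount of 0.1 it was 1.52, with a pseudocount of 5 it was 0.32, and without EV replicate 2 it was 0.55. A TPM near 1 at unknown depth may rest on few reads.

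**Figure D1:**
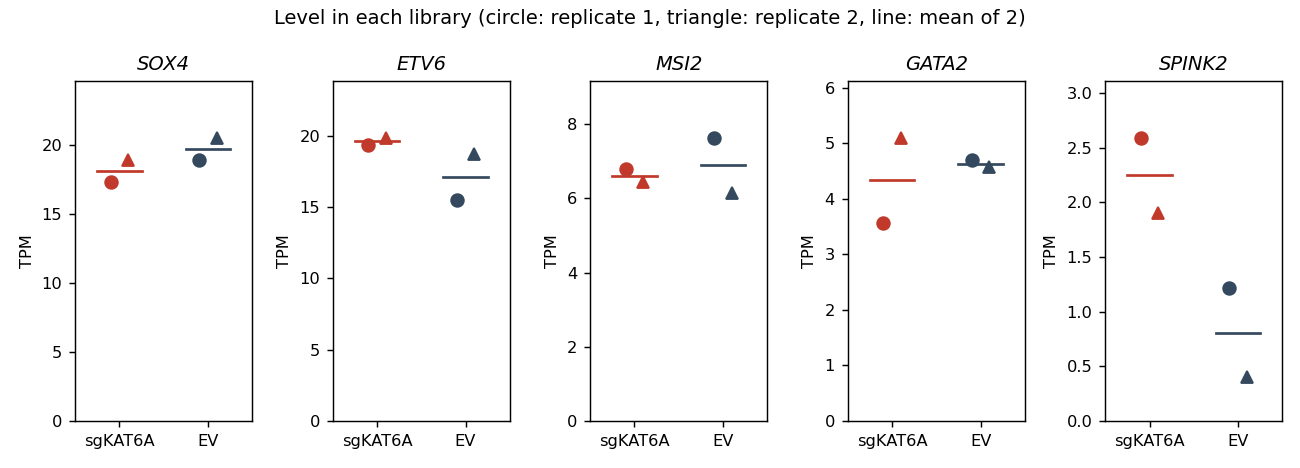
TPM (y axes from 0, a separate scale per gene) of the 5 tested stem and progenitor genes in the sgKAT6A and EV libraries, with replicate 1 as circles, replicate 2 as triangles and the mean of 2 as a line. SPINK2 (sgKAT6A 2.59 and 1.91 TPM, EV 1.21 and 0.399 TPM) and ETV6 (sgKAT6A 19.4 and 19.9 TPM, EV 15.5 and 18.7 TPM) did not overlap between the groups, and the other 3 did.

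Because TPM is adjusted for length, levels can be ordered across genes. In each of the 4 libraries the order below the leading pair was MSI2, GATA2 and SPINK2, with MECOM and HLF below them and CD34, PROM1 and ERG at 0. MECOM and HLF changed places in sgKAT6A replicate 1 and were otherwise in that order. The ranges of MSI2, GATA2 and SPINK2 over the 4 libraries did not overlap one another, whereas those of SOX4 and ETV6 did, as did those of MECOM and HLF. SOX4 and ETV6 were between the 73.5th and 77.3rd percentile of protein-coding genes, and MSI2 was between the 57.6th and 61.9th. GATA2 ranked between the 52.3rd and 56.0th percentile and SPINK2 between the 38.8th and 49.7th. Within a library, the log2 ratio of ETV6 to SOX4 was 0.16 and 0.07 in sgKAT6A, against -0.29 and -0.14 in EV. ETV6 was thus above SOX4 in both sgKAT6A libraries and below it in both EV libraries. This ratio does not depend on the scaling of a library. It was chosen after the values were seen and was not tested.

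**Figure D2:**
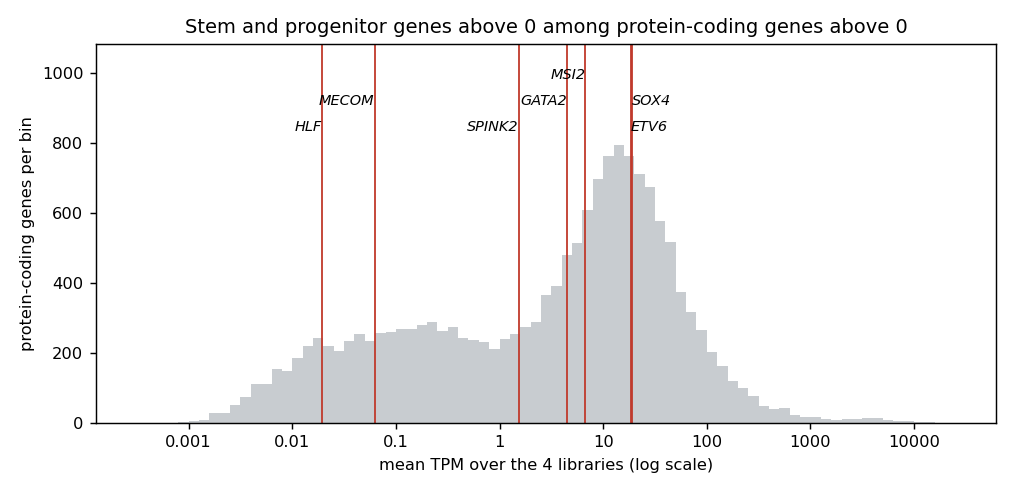
Number of protein-coding genes per bin (y axis) by mean TPM over the 4 libraries (x axis, log scale), for genes above 0, with red lines at the 7 stem and progenitor genes above 0. SOX4 and ETV6 lie in the main peak of expressed genes, whereas HLF and MECOM lie in the low tail under 1 TPM.

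The targeted gene had lower values after targeting, without overlap of the groups. KAT6A (chromosome 8, 41929479 to 42052026, minus strand) was at 12.2 and 10.8 TPM in sgKAT6A cells, against 16.2 and 16.7 TPM in EV cells. Its adjusted p was 0.784 by limma, and KAT6A protein was not measured. Across the 12603 genes that averaged 1 TPM or more, limma called 0 (0%) at an adjusted p of 0.05, the smallest adjusted p was 0.191, and 459 (3.64%) had an unadjusted p under 0.05. None of the 5 stem and progenitor genes reached that unadjusted level here. SPINK2 did under 4 alternatives, with unadjusted p by limma of 0.0425 without the mean-variance trend, 0.0314 when EV replicate 1 was omitted, 0.0283 with the replicate block and 0.0372 with protein-coding genes only, and its adjusted p over these was between 0.217 and 1. With 5 genes, 2 above and 0 below without overlap are counts too small to set apart from the 14.4% and 23.2% of all genes. The median log2 difference was -0.05 over the 5 genes and -0.02 over all genes tested. The median of the 5 turned positive when EV replicate 1 (0.07) or sgKAT6A replicate 1 (0.12) was omitted. The medians over all genes were then -0.07 and -0.03. With protein-coding genes only the median of the 5 was 0.01, against 0.03 over all genes tested in that setting. With 2 libraries in each group the smallest two-sided p of an exact permutation test is 0.333, so no single gene was tested that way. Protein-coding genes held 77.9% and 78.1% of the TPM in sgKAT6A against 81.2% and 81.6% in EV, and TPM sums to a fixed total. After rescaling to protein-coding genes only, a setting chosen after the data were seen, the differences were 1.00 for SPINK2 and 0.26 for ETV6, with adjusted p = 0.796 by limma for both. In that setting 19.5% of genes were above and 16.2% below without overlap, and median-of-ratios scaling gave 18.28% above and 18.02% below.

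**Figure D3:**
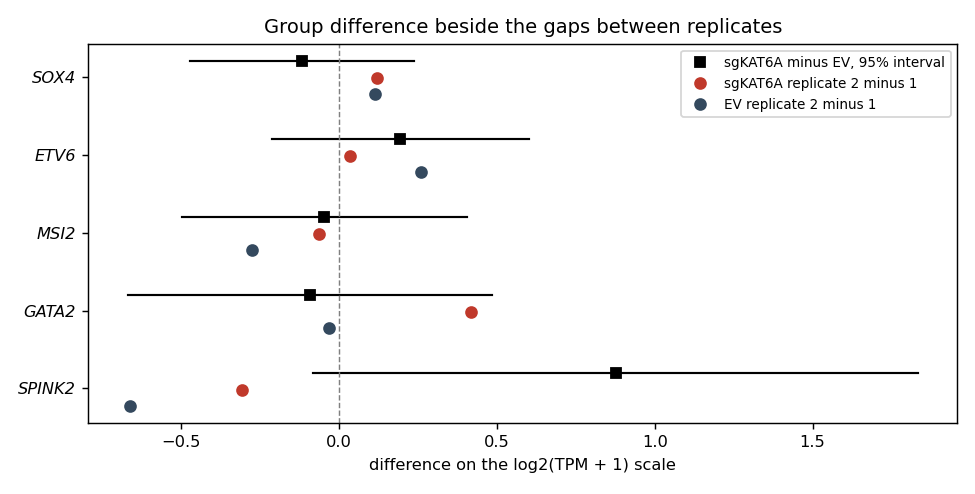
Differences on the log2(TPM + 1) scale (x axis) for the 5 tested stem and progenitor genes. Black squares are sgKAT6A minus EV with 95% intervals from limma, red points are sgKAT6A replicate 2 minus 1, and dark points are EV replicate 2 minus 1. Each interval includes 0, and for SOX4, MSI2, GATA2 and ETV6 a gap between replicates was larger than the group difference.

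MOLM-13 cells also expressed their myeloid and leukaemia markers in both groups. CD33, the myeloid surface antigen, was at 115 and 99.2 TPM in sgKAT6A cells and 107 and 107 TPM in EV cells. All 10 MOLM-13 markers were tested and none passed. Without overlap, 1 was above (LYZ) and 2 below (FLT3 and HOXA9), against 14.4% and 23.2% of all genes tested. LYZ was at 10975 and 9500 TPM in sgKAT6A cells and 7060 and 8068 TPM in EV cells. LYZ and FLT3 had an unadjusted p under 0.05 by limma. Endothelial markers, checked because endothelium also expresses ERG, GATA2 and MECOM, summed to 0.250 and 0.721 TPM in sgKAT6A cells and 0.0916 and 0.336 TPM in EV cells, and CDH5 and TEK were each under 0.02 TPM in every library. Megakaryocyte markers summed to 0.132 and 0.654 TPM in sgKAT6A cells and 1.18 and 0.173 TPM in EV cells, with PF4 and PPBP at 0. B cell markers summed to 1.45 and 1.26 TPM in sgKAT6A cells and 0.760 and 1.64 TPM in EV cells, with MS4A1 at 0. Of the 3 T cell markers in the table, CD3D alone was above 1 TPM, and CD2 was at 0. Of the 4 epithelial markers, KRT8 and KRT18 were tested and neither passed, while EPCAM and CDH1 were under 1 TPM. KRT8 was higher without overlap, against 14.4% of all genes tested. Its levels were 3.03 and 3.57 TPM in sgKAT6A cells and 2.74 and 3.02 TPM in EV cells. KRT18 overlapped, at 6.20 and 5.99 TPM in sgKAT6A cells and 6.09 and 7.12 TPM in EV cells. Erythroid markers summed to 389 and 192 TPM in sgKAT6A cells and 116 and 407 TPM in EV cells, nearly all of it HBB and HBA1, while KLF1 and GATA1 were under 1 TPM. All of these sums overlapped between the groups. Monocyte maturation markers had 15 genes tested, with 1 above (CD86) and 0 below without overlap, against 14.4% and 23.2% of all genes tested. Their median log2 difference was 0.91, and 0 passed. Within each replicate number 14 of the 15 were higher in sgKAT6A. The labels do not say that these numbers pair the libraries, and the same share over all genes was not computed. Leaving out EV replicate 1 gave a median of 0.079 and leaving out EV replicate 2 gave 1.74, while leaving out sgKAT6A replicate 1 gave 1.58 and sgKAT6A replicate 2 gave 0.13. Their summed level was 1074 and 2357 TPM in sgKAT6A cells, against 487 and 1516 TPM in EV cells. These sums rank sgKAT6A replicate 2 highest and EV replicate 1 lowest, as ETV6 does. SPINK2 instead was highest in sgKAT6A replicate 1 and lowest in EV replicate 2. The part of maturation in either result was not tested.

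The wider set of stem cell regulators was described from gene lists, and no gene in any list passed. The heptad, a group of 7 transcription factors that bind together in blood progenitors and includes ERG and GATA2, had 5 genes tested. Without overlap, 1 was above and 0 below, against 14.4% and 23.2% of all genes tested. The median log2 difference was 0.03, and -0.04 without EV replicate 2. LMO2, the bridging factor of the complex, was at 122 and 128 TPM in sgKAT6A cells and 125 and 119 TPM in EV cells. LYL1, a basic helix-loop-helix factor, was at 68.3 and 55.8 TPM in sgKAT6A cells and 63.7 and 53.8 TPM in EV cells. TAL1, its close relative, was under 1 TPM in each library. FLI1, a close ETS relative of ERG, was the gene without overlap, at 30.3 and 38.9 TPM in sgKAT6A cells and 26.4 and 28.7 TPM in EV cells (adjusted p = 0.784 by limma). MOLM-13 cells thus contained FLI1, LMO2 and LYL1 transcripts while ERG was listed at 0.

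Self-renewal regulators had 8 of 18 genes tested, with 0 above and 5 below without overlap, against 14.4% and 23.2% of all genes tested. Their median log2 difference was -0.19. BMI1, a Polycomb repressor, was at 57.5 and 54.7 TPM in sgKAT6A cells and 79.0 and 80.2 TPM in EV cells. BCL11A, a zinc finger repressor, was at 7.48 and 6.05 TPM in sgKAT6A cells and 12.1 and 8.68 TPM in EV cells. MYB, a factor required for definitive haematopoiesis, was at 123 and 94.0 TPM in sgKAT6A cells and 141 and 127 TPM in EV cells. The homeobox gene HOXA9 and the RNA-binding protein gene IGF2BP2 completed the 5, with log2 differences of -0.21 and -0.18. Each of the 5 had an adjusted p of 0.784 by limma, and BMI1 alone had an unadjusted p under 0.05 (0.0108). LIN28B and HOPX were at 0 in every library.

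The LSC17 list, 17 genes of a score for leukaemia stem cell content that includes CD34, had 8 genes tested. Without overlap, 2 were above and 1 below, against 14.4% and 23.2% of all genes tested. The median log2 difference was 0.22. The summed level of the 17 genes was instead lower, at 122 and 118 TPM in sgKAT6A cells against 148 and 146 TPM in EV cells. LAPTM4B, a lysosomal membrane protein, had the smallest unadjusted p and was at 67.5 and 57.6 TPM in sgKAT6A cells, against 88.4 and 87.2 TPM in EV cells. This gene was the largest part of the sum in every library, and its lower level made up most of the fall in the sum. ARHGAP22 and DNMT3B were on the higher side without overlap, by 0.29 and 0.14 on the log2 scale. MMRN1 and CD34 were at 0. Without EV replicate 1 the median of this list was -0.04, and leaving out sgKAT6A replicate 2 gave -0.14, so its direction depended on single libraries.

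Surface proteins of stem and progenitor cells had 13 of 19 genes tested, with a median of 0.18. Without overlap, 2 were above and 1 below, against 14.4% and 23.2% of all genes tested. FLT3, the receptor tyrosine kinase of early progenitors, was at 46.2 and 42.9 TPM in sgKAT6A cells, against 61.0 and 59.4 TPM in EV cells. CD93 was at 79.4 and 77.4 TPM in sgKAT6A cells and 50.7 and 69.5 TPM in EV cells. CD44, the hyaluronan receptor, was at 46.7 and 63.6 TPM in sgKAT6A cells and 34.5 and 46.2 TPM in EV cells. KIT and THY1 were under 1 TPM in every library. Leaving out EV replicate 1 gave a median of -0.11, and leaving out sgKAT6A replicate 2 gave -0.01.

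Relatives of the stem and progenitor genes showed which members of each family were transcribed in these cells. Of 25 other ETS family genes 18 were tested, with a median of 0.13. Without overlap, 3 were above (FLI1, ELF4 and ETV7) and 4 below (ETV4, ELF1, GABPA and ERF), against 14.4% and 23.2% of all genes tested. Without EV replicate 1 that median was -0.04. SPI1, which encodes the myeloid ETS factor PU.1, was at 379 and 519 TPM in sgKAT6A cells and 334 and 461 TPM in EV cells. Among 12 close paralogs, 5 were tested, with a median of -0.37, which was 0.03 without EV replicate 1. Without overlap, 0 were above and 1 below (TEF), against the same shares of all genes. PODXL2, a sialomucin of the CD34 family, was at 36.9 and 15.5 TPM in sgKAT6A cells and 54.6 and 32.5 TPM in EV cells, with a wide gap between the replicates of each group. SOX12, a SOXC-class relative of SOX4, was at 17.6 and 11.8 TPM in sgKAT6A cells and 25.5 and 14.1 TPM in EV cells. NFIL3, TEF and DBP, bZIP factors related to HLF, were at 1.82 TPM or more in every library. MSI1, PROM2 and PRDM16, paralogs of MSI2, PROM1 and MECOM, were each under 1 TPM.

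**Figure D4:**
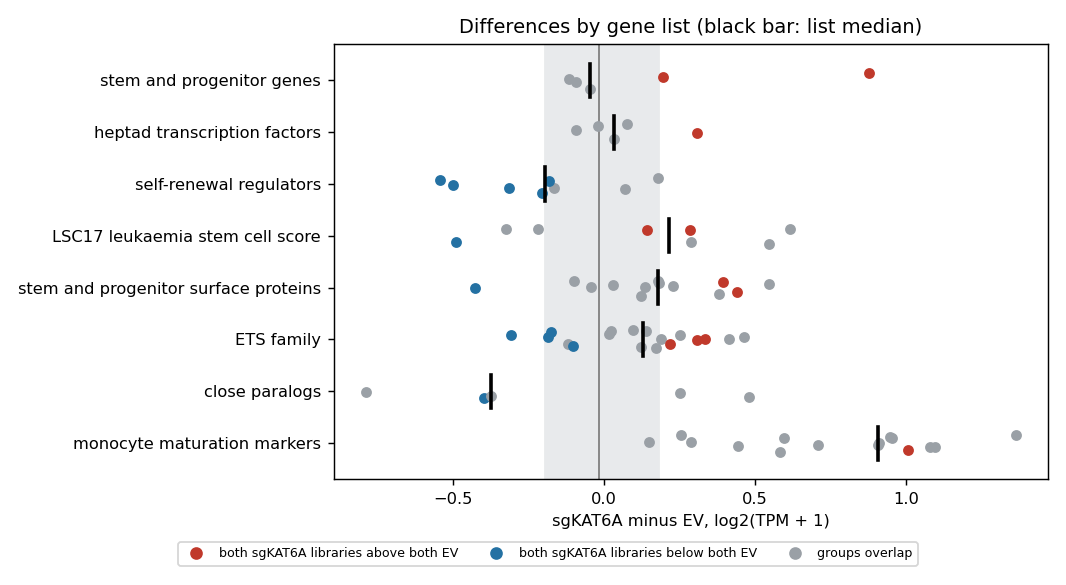
Differences on the log2(TPM + 1) scale (x axis, sgKAT6A minus EV) of the tested genes in 8 lists (rows), with a black bar at each list's median. Red points had both sgKAT6A libraries above both EV libraries, blue points both below, and grey points overlapped. The grey band spans the middle of all 12603 genes tested, from the lower quartile of -0.19 to the upper quartile of 0.18. The stem and progenitor genes had 2 red and 0 blue points, against 14.4% and 23.2% of all genes tested.

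Of the 5 tested genes, SPINK2 alone spanned at least 1 on the log2(TPM + 1) scale over the 4 libraries, with a span of 1.36. The protein-coding genes whose centred profiles lay nearest to it, among 8511 that averaged 5 TPM or more, were CADM1 and PLXND1. Their Euclidean distances over 4 libraries were 0.22 and 0.23. The median for all candidates was 1.13, which the nearest genes lie below by the way they were picked. CADM1, an immunoglobulin-family adhesion molecule, was at 14.9 and 13.2 TPM in sgKAT6A cells and 9.23 and 6.57 TPM in EV cells. PLXND1, a semaphorin receptor, was at 7.05 and 7.09 TPM in sgKAT6A cells and 4.45 and 2.58 TPM in EV cells. Likeness over 4 libraries is a description and was not tested.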

How the data were processed

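RNA of MOLM-13 cells was isolated with a column kit, and a commercial company built the libraries, per the labels' protocols. The authors deposited 1 table of TPM values by gene symbol. Salmon and hg38 are named in the submitters' processing notes. No version, transcript annotation or filter was stated in the sources used. Groups and replicate numbers came from the sample titles.

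TPM values were not rescaled and were analysed as log2(TPM + 1), which understates the change of low genes. The 12603 genes averaging 1 TPM or more in the 4 libraries were compared between sgKAT6A and EV with limma 3.58.1 in R 4.3.3, without covariates. Variances were moderated along a mean-variance trend, with 2 residual and 1.98 prior degrees of freedom. Two-sided p-values were adjusted across all 12603 genes by the Benjamini-Hochberg method, and 0.05 was the threshold. Members and gene lists were chosen with earlier results of these data known, so lists are described by counts and medians. From each list up to 4 genes with the smallest unadjusted p were to be named, and others were named after their values were seen. Gene classes and promoter windows came from RefSeq by symbol, and gene positions from GENCODE 29. Without depth in TPM, neither counting intervals nor detection limits could be given. Alternatives covered the pseudocount, the filter, scaling, the variance model, omission of each library and a replicate block. Figures were drawn with matplotlib 3.10.9.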

Additional observations from a re-analysis of the deposited data

How the results depend on the processing

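SPINK2, ETV6 and SOX4 kept the sign of their differences under every alternative that gave a value, and no adjusted p of the 5 tested genes was below 0.05. The lowest adjusted p over the alternatives, by limma, was 0.217 for SPINK2 and 0.408 for ETV6, both with the replicate block, and the highest was 1 for each. The number of genes called was 15 with the replicate block and 0 under the other alternatives. The labels do not say that the numbers pair the libraries. The gaps between replicates 2 and 1 of the groups had r = 0.45 across 12603 genes, which 2 pairs cannot settle.

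With the filter at 5 TPM, SPINK2 and GATA2 were not tested and 1 of 3 genes was higher without overlap, against 12.02% of all genes in that setting. Quantile normalization gave 1 of 5 genes lower without overlap (SOX4), against 19.4% of all genes. MSI2 was at 0.0084 with protein-coding genes only. With no filter the list medians were 0.014 for LSC17, -0.0043 for self-renewal regulators and 0.025 for close paralogs. With the 5 TPM filter they were -0.27, -0.26 and -0.060 in that order. The self-renewal median was -0.13 with protein-coding genes only. The filters change which genes enter a median, and other causes were not tested.

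Leaving out each library in turn gave 2 to 3 of the 5 genes higher and 0 to 2 lower without overlap, against 19.5% to 39.2% of all genes higher and 33.1% to 44.1% lower. The median of the 5 ran from -0.059 to 0.12. GATA2 ran from -0.30 to 0.12, positive without sgKAT6A replicate 1, and MSI2 from -0.18 to 0.091, positive without EV replicate 1. List medians ran from -0.14 to 0.24 for LSC17, from -0.045 to 0.067 for the heptad, from -0.25 to -0.18 for self-renewal regulators, from -0.044 to 0.25 for the ETS family, and from -0.64 to 0.030 for close paralogs. They ran from -0.11 to 0.38 for surface proteins and from 0.079 to 1.74 for monocyte maturation markers. A group left with a single library was assumed to vary like the other.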
